A study of Mus musculus with 6 samples.

Results

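The genes described here are 10 regulators of cell cycle arrest and cellular senescence: the CDK inhibitor genes Cdkn1a, Cdkn1b, Cdkn2a, Cdkn2b, Cdkn2c and Cdkn2d, the tumour suppressor gene Trp53 and its antagonist Mdm2, the retinoblastoma gene Rb1, and Lmnb1, which encodes lamin B1 of the nuclear lamina. They were chosen by name, with earlier results of these data known, as every probe set whose single annotated gene symbol was on this list. This gave 15 probe sets of 9 genes, among 34945 probe sets with 1 gene symbol. No probe set was annotated with Trp53 alone in the table used here, so Trp53 itself was not analysed here. Secondary follicles were dissected mechanically from the ovaries of female C57BL/6J mice, and their RNA was measured on Affymetrix expression arrays for mouse, whose probes lie toward the 3' end of transcripts. The old group held 3 samples from mice aged 32 weeks and the young group 3 samples from mice aged 9 weeks. All mice were obtained as specific pathogen-free, were untreated as far as the labels state, and were without genetic modification. The paper allows that some viruses might nevertheless have infected them. GEO's labels call the 3 samples of an age biological replicates without saying how many mice gave each, and p-values therefore measure only the spread between these samples.

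CDK inhibitors stop cells before DNA is copied. The INK4 proteins, encoded by Cdkn2a to Cdkn2d, bind CDK4 and CDK6 and keep them from D-type cyclins, while p21 (Cdkn1a) and p27 (Cdkn1b) bind cyclin-CDK complexes, above all those of CDK2. Without CDK activity the retinoblastoma protein stays unphosphorylated and holds E2F factors inactive. The transcription factor p53 induces Cdkn1a after DNA damage, and it also induces Mdm2, a ubiquitin ligase that marks p53 for degradation. In senescent cells, p16 from Cdkn2a and p21 typically accumulate while lamin B1 is lost. In the ovary, p27 is known to restrain the growth of primordial follicles and the division of granulosa cells, the somatic cells that surround the oocyte.

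Promoter sequences are shown for Cdkn1a, Cdkn2a and Cdkn2c, the CDK inhibitor genes with a probe set that was higher in the old samples, because p53, Sp1 and E2F factors are known regulators of such genes. They are RefSeq sequences of GRCm38.p6, each covering the 250 bases before an annotated start, on the strand of the gene. Capitals mark matches on either strand to the p53 consensus, to GGGCGG, the core of an Sp1 box, or to TTTNNCGC. The p53 consensus is 2 copies of a 10-base element without a spacer. It was searched with at most 1 mismatch, which could not fall on the fixed C or G of either element. TTTNNCGC is a loose form of the core of an E2F site, with any base at N. Cdkn1a has 2 annotated starts in the table, and the upstream window holds the p53 match:
Cdkn1a upstream start, chr17:29090729-29090978, plus strand: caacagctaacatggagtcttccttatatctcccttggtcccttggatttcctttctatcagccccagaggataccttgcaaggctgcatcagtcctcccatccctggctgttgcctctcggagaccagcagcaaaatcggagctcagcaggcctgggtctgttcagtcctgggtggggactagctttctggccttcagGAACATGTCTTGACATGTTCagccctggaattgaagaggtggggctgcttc
Cdkn1a downstream start, chr17:29093519-29093768, plus strand: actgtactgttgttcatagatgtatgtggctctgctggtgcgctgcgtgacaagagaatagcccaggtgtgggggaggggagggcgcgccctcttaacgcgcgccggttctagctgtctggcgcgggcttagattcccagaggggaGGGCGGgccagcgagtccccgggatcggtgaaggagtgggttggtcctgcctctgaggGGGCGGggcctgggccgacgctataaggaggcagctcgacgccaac
Cdkn2a has an upstream start from which p19Arf, an inhibitor of Mdm2, is made, and a downstream start from which p16 is made:
Cdkn2a upstream start, chr4:89294620-89294869, minus strand: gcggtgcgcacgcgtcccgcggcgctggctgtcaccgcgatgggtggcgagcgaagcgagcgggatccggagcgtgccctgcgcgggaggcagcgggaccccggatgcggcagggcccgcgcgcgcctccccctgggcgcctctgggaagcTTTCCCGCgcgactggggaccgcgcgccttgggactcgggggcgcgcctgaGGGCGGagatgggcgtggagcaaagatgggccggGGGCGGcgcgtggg
Cdkn2a downstream start, chr4:89282193-89282442, minus strand: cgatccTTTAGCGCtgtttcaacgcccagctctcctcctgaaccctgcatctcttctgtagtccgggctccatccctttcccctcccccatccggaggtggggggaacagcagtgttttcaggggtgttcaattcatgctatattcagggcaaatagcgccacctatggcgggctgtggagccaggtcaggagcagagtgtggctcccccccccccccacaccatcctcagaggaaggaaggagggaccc
Cdkn2c, which encodes the INK4 protein p18, also has a downstream start, whose window is not shown. That window was 42.8% GC and held no match to the p53 consensus, GGGCGG or TTTNNCGC. The upstream window of Cdkn2c, at 77.2% GC, is rich in GC:
Cdkn2c upstream start, chr4:109666757-109667006, minus strand: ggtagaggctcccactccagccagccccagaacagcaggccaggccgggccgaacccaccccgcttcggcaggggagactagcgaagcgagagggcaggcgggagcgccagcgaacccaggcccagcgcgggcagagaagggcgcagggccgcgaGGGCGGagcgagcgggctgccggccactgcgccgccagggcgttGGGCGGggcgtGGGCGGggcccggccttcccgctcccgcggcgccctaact

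The p53 match before the upstream start of Cdkn1a lay at chr17:29090928-29090947, 51 to 32 bases before that start, with 1 mismatch. It was the only match to this consensus in the 11 windows searched for 8 of the 10 genes, and 19 of 32851 promoter windows in the table (0.0578%) held such a match. GGGCGG was present in 32.7% of all windows and TTTNNCGC in 4.28%. The upstream window of Cdkn2c held 3 copies of GGGCGG, that of Cdkn2a 2 copies and the downstream window of Cdkn1a 2 copies, and each window of Cdkn2a held 1 TTTNNCGC. CCAAT and TGACGTCA, the cores of the NF-Y and CREB sites, were in 33.8% and 1.55% of all windows, and neither was in the 5 windows shown. No matches to different motifs overlapped in the windows of these genes. A match describes the letters in the window and is not a measurement of binding. Sequence outside the windows was not searched, so a window without a match does not show that a gene lacks a site.

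Values are log2 of the deposited RMA intensity. The ages were compared with limma, with p-values adjusted over all 34945 probe sets (Benjamini-Hochberg), and a probe set changed where its adjusted p was at most 0.05. Of the 15 probe sets, 5 rose and 3 fell in the old samples, and 7 did not pass the test. Without any single sample, 2 rose (old replicate 1, old replicate 3 or young replicate 1 left out) or 3 rose (old replicate 2, young replicate 2 or young replicate 3 left out), and 2 or 3 fell. Over all probe sets tested, 8.95% rose and 13.8% fell (22.8% in either direction), and among the brighter ones, with a mean log2 of at least 5, 29.9% passed. None of the 15 reached the study's thresholds, which add a fold of at least 2 and which 1.02% of all probe sets passed. The old and young values did not overlap for 9 of the 15 probe sets, against 41.3% of all probe sets. The median log2 fold change was 0.10 over the 15 probe sets and -0.01 over all probe sets, and the median size of the change, whatever its direction, was 0.26 and 0.14. The changes were small, from -0.59 for the dimmer probe set of Cdkn1b to 0.67 for the dimmest of Mdm2.

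**Figure D1:**
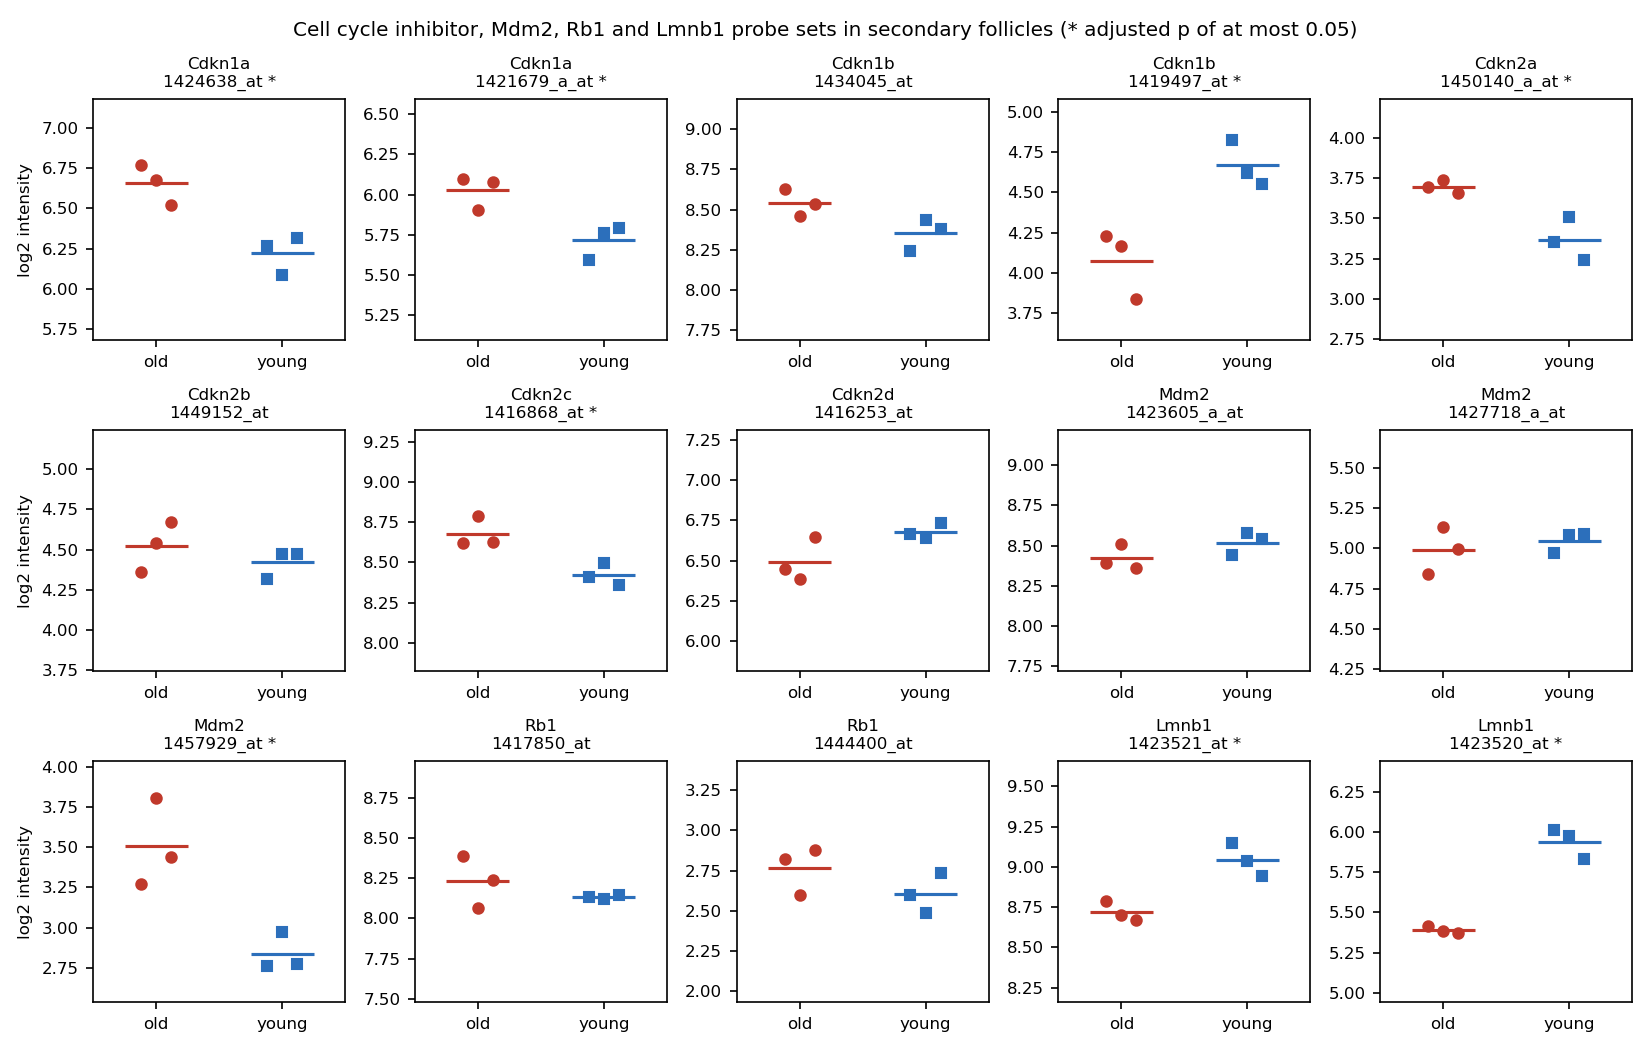
Log2 intensity of each of the 15 probe sets (vertical axes, all spanning the same range of log2 units) in the 3 old samples (red circles, left) and the 3 young samples (blue squares, right), with a line at each mean. Both probe sets of Cdkn1a lie higher and both of Lmnb1 lie lower in the old samples, while those of Cdkn1b lie in opposite directions.

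Several features of the arrays moved with age and stand beside every comparison below. The lower quartile of log2 intensity was 3.20 to 3.24 on the old and 3.13 to 3.14 on the young arrays, and the upper quartile 7.10 to 7.14 on the old and 7.17 to 7.20 on the young arrays, so that the dim end lay higher and the bright end lower on the old arrays, without overlap. The 3' minus the 5' probe set of Gapdh averaged 1.51 ± 0.0048 in the old and 0.47 ± 0.014 in the young samples (log2, SD, n = 3 each), that of beta-actin (Actb) 2.53 ± 0.050 and 1.48 ± 0.033, and the mean over 4 poly-A RNAs added to the samples 3.92 ± 0.086 in the old and 3.08 ± 0.055 in the young samples (exact two-sided permutation test, p = 0.1 each, the smallest p that 3 against 3 allow). The summed level of a list of cell markers is the log2 of the sum of their intensities, so the brightest markers weigh most in it. For granulosa cell markers it was 14.98 to 14.99 in the old and 14.91 to 14.95 in the young samples. Of these markers, 1 of 10 was higher and 1 lower in the old samples. Each marker was represented by its brightest probe set, and by that measure 9.34% of all genes were higher and 12.4% lower. Of the oocyte markers, 8 of 12 were lower and none higher. Their summed level was 14.37 to 14.40 in the old and 14.63 to 14.66 in the young samples. Markers of other cells were higher: 7 of 11 of macrophages and other leukocytes (1 lower, summed level 9.26 to 9.39 in the old and 8.45 to 8.55 in the young samples), 6 of 7 of the surface epithelium (1 lower, 10.70 to 10.74 and 10.56 to 10.63), 5 of 9 of theca and stroma (1 lower, 12.134 to 12.154 and 11.995 to 12.110) and 3 of 5 of smooth muscle (10.26 to 10.30 and 9.55 to 9.68). Of 5 endothelial markers 1 was higher and 1 lower (7.35 to 7.48 and 7.27 to 7.32). No marker had an intensity of 0. Of 4 lutein cell markers 2 were measured and neither passed (5.93 to 6.08 and 5.80 to 6.13). The part of the quartile shift, of the 3' minus 5' shift and of cell composition in the results was not tested. The 3' minus 5' values separated the old from the young arrays fully, also for the RNAs added to the samples. Effects of RNA quality, of processing and of age therefore cannot be told apart in this design. Fewer cells of a type and less RNA per cell cannot be told apart in such samples either.

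Cdkn1a, the gene of p21 and the classical target of p53, rose at both of its probe sets. Its brighter probe set, 1424638_at, had log2 intensities of 6.77, 6.67 and 6.52 in the old samples, against 6.26, 6.09 and 6.32 in the young samples. All 3 old values lay above all 3 young values, and the log2 fold change was 0.43 (standard error 0.09, limma, adjusted p = 0.013), a fold of 1.35. The dimmer probe set, 1421679_a_at, had 6.10, 5.90 and 6.08 in the old and 5.59, 5.76 and 5.79 in the young samples, again without overlap. Its log2 fold change was 0.31 (standard error 0.08, limma, adjusted p = 0.032). The brighter probe set kept its call without each sample in turn, at 0.37 to 0.50. The dimmer did not pass without old replicate 1 (0.28, adjusted p = 0.093), without old replicate 3 (0.28, adjusted p = 0.10), without young replicate 1 (0.25, adjusted p = 0.082) or without young replicate 2 (0.33, adjusted p = 0.067). The difference between the brighter and the dimmer probe set was 0.63 ± 0.17 in the old and 0.51 ± 0.17 in the young samples (SD, n = 3 each, exact permutation test, p = 0.4).

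Cdkn1b, the gene of p27, gave opposite values at its 2 probe sets. The brighter, 1434045_at, had 8.63, 8.46 and 8.53 in the old samples and 8.25, 8.44 and 8.38 in the young samples. Old replicate 2 lay just above young replicate 2, so the groups did not overlap, but the log2 fold change of 0.19 (95% interval 0.01 to 0.36) did not pass (limma, adjusted p = 0.12). The dimmer, 1419497_at, had 4.23, 4.16 and 3.84 in the old and 4.83, 4.62 and 4.56 in the young samples, and it fell by 0.59 on the log2 scale (standard error 0.12, limma, adjusted p = 0.011). Within each array, the brighter exceeded the dimmer probe set by 4.46 ± 0.21 in the old and by 3.69 ± 0.23 in the young samples (SD, n = 3 each), a difference of 0.78 without overlap between the ages (exact permutation test, p = 0.1, and p = 0.175 adjusted over the 7 pairs of probe sets compared). The dimmer lay above 37.9% of all probe sets, and with a pseudocount of 16 added to the intensities its log2 fold change was -0.33 and the difference between the ages 0.51. With the probe sets of Cdkn1b averaged, the log2 fold change was -0.20 (limma, adjusted p = 0.075), so the sign for p27 depends on the probe set. The shift between the probe sets lay in the same arrays as the shift of 1.04 in the 3' minus 5' value of Gapdh, whose part in it was not tested, and where the probe sets lie along the transcript was not analysed here.

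Of the INK4 genes, Cdkn2c and Cdkn2a rose slightly. Cdkn2c, measured by the probe set 1416868_at, had 8.62, 8.78 and 8.63 in the old samples, against 8.41, 8.49 and 8.36 in the young samples. The groups did not overlap, and the log2 fold change was 0.26 (standard error 0.07, limma, adjusted p = 0.037). With any of the 6 samples left out in turn it did not pass, at 0.20 to 0.29 with an adjusted p between 0.058 and 0.11, and by SAM, the test the study used, its adjusted p was 0.058. Cdkn2a, at the probe set 1450140_a_at, had 3.70, 3.74 and 3.65 in the old and 3.35, 3.51 and 3.24 in the young samples. The probe set was dim, with 26.7% of all probe sets below it, and its log2 fold change was 0.33 (standard error 0.08, limma, adjusted p = 0.022). The adjusted p was between 0.052 and 0.066 without old replicate 1 (0.33), old replicate 2 (0.31), old replicate 3 (0.35), young replicate 1 (0.32) or young replicate 3 (0.27), and it was 0.069 after quantile normalization (0.25) and 0.057 after cyclic loess (0.27). With a pseudocount of 16 added to the intensities, the log2 fold change of Cdkn2a was 0.14. Which of the p16 and p19Arf transcripts the probes of this set read was not analysed here.

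The other INK4 genes did not pass the test. Cdkn2b, the gene of p15 and a target of TGF-beta signaling, had 4.36, 4.54 and 4.67 at 1449152_at in the old samples and 4.32, 4.47 and 4.47 in the young samples, with overlapping groups. Its log2 fold change was 0.10 (95% interval -0.11 to 0.32, limma, adjusted p = 0.47). Cdkn2d, the gene of p19 of the INK4 family, had 6.45, 6.39 and 6.64 at 1416253_at in the old and 6.66, 6.64 and 6.74 in the young samples. Only old replicate 3 reached the young values, and the log2 fold change was -0.19 (95% interval -0.37 to -0.0007, limma, adjusted p = 0.14).

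**Figure D2:**
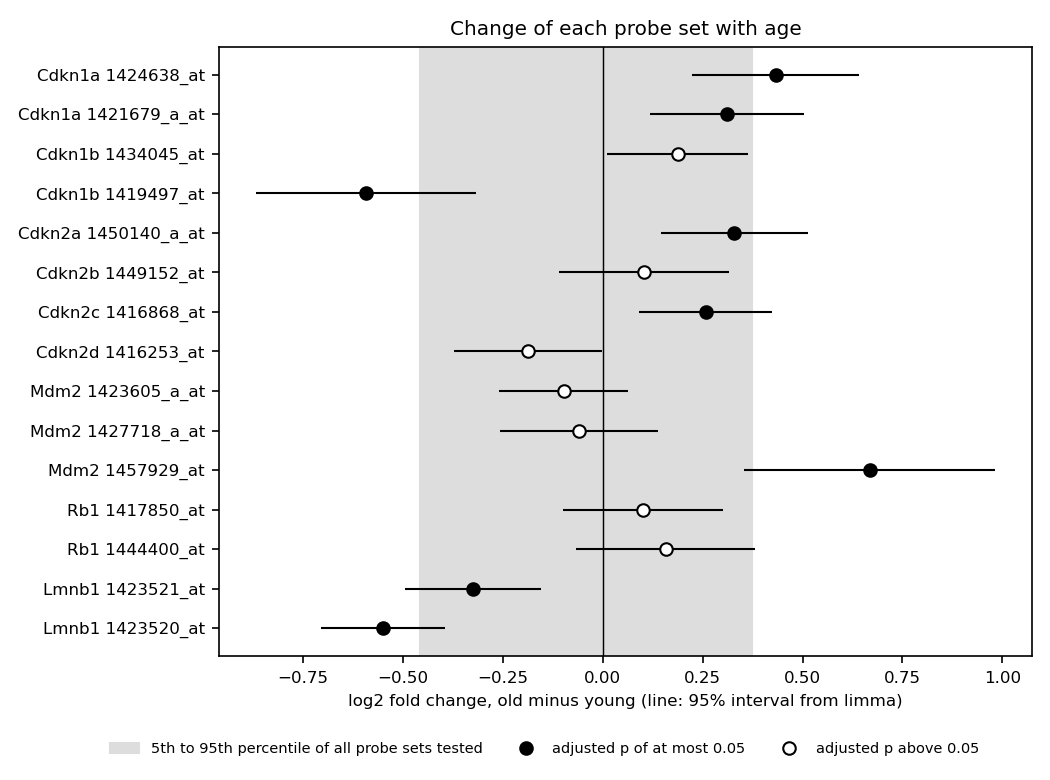
Log2 fold change of each of the 15 probe sets, old minus young (horizontal axis), with its 95% interval from limma. Filled points have an adjusted p of at most 0.05, and the grey band spans the 5th to the 95th percentile of all probe sets tested, from -0.46 to 0.37; the brighter Cdkn1a probe set, the dimmest of Mdm2, the dimmer of Cdkn1b and the dimmer of Lmnb1 lie outside it.

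Lmnb1 fell at both of its probe sets in the old samples. Lamin B1 lines the inner nuclear membrane, and its loss is used as a marker of senescence in mouse and human cells. The brighter probe set, 1423521_at, had 8.79, 8.70 and 8.67 in the old samples, against 9.15, 9.04 and 8.94 in the young samples. The log2 fold change was -0.33 (standard error 0.07, limma, adjusted p = 0.018), a fold of 0.798. The dimmer, 1423520_at, had 5.42, 5.38 and 5.37 in the old and 6.01, 5.97 and 5.83 in the young samples, with a log2 fold change of -0.55 (standard error 0.07, limma, adjusted p = 0.0014), the smallest p of the 15 probe sets. Neither probe set had overlapping groups. The dimmer kept its call without each sample in turn (-0.60 to -0.51), and the brighter did not pass without old replicate 3 (-0.30, adjusted p = 0.064) or without young replicate 2 (-0.33, adjusted p = 0.054). The difference between the brighter and the dimmer was 3.33 ± 0.040 in the old and 3.10 ± 0.038 in the young samples without overlap (SD, n = 3 each, exact permutation test, p = 0.1, and p = 0.175 adjusted over 7 pairs). This shift of 0.22 was 0.10 with a pseudocount of 16 added to the intensities. Oocyte markers were lower in the same samples, 8 of 12 against 12.4% of all genes, with a median log2 fold change of -0.25. The part of the oocyte in the fall of Lmnb1 was not tested.

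Mdm2, whose transcript p53 induces, gave no common direction over its 3 probe sets. The brightest, 1423605_a_at, had 8.39, 8.51 and 8.36 in the old samples and 8.44, 8.58 and 8.54 in the young samples, with overlapping groups. Its log2 fold change was -0.10 (95% interval -0.26 to 0.06, limma, adjusted p = 0.36). The next, 1427718_a_at, had 4.84, 5.13 and 5.0 in the old and 4.97, 5.08 and 5.09 in the young samples, a log2 fold change of -0.06 (95% interval -0.26 to 0.14, limma, adjusted p = 0.66). The dimmest, 1457929_at, had 3.27, 3.81 and 3.44 in the old and 2.76, 2.98 and 2.78 in the young samples without overlap, and it rose by 0.67 (standard error 0.14, limma, adjusted p = 0.011). Only 21.4% of all probe sets were dimmer, old replicate 2 was the highest, and with a pseudocount of 16 the log2 fold change was 0.24. The brightest exceeded the dimmest by 4.91 ± 0.21 in the old and 5.68 ± 0.081 in the young samples, and the middle exceeded the dimmest by 1.48 ± 0.14 and 2.21 ± 0.10 (SD, n = 3 each, exact permutation test, p = 0.1, and p = 0.175 adjusted over 7 pairs). These shifts of -0.77 and -0.73 were -0.34 and -0.28 with the pseudocount. For the brightest against the middle probe set, the difference was 3.43 ± 0.10 in the old and 3.47 ± 0.021 in the young samples (exact permutation test, p = 0.5).

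Rb1, whose protein is the main target of the kinases that these inhibitors block, did not pass the test. Its brighter probe set, 1417850_at, had 8.39, 8.07 and 8.24 in the old samples and 8.14, 8.12 and 8.14 in the young samples, so that the old values spread to both sides of the young ones. The log2 fold change was 0.10 (95% interval -0.10 to 0.30, limma, adjusted p = 0.45). The dimmer, 1444400_at, had 2.82, 2.6 and 2.88 in the old and 2.6, 2.49 and 2.74 in the young samples (0.16, 95% interval -0.07 to 0.38, limma, adjusted p = 0.29), and 13.0% of all probe sets were dimmer.

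**Figure D3:**
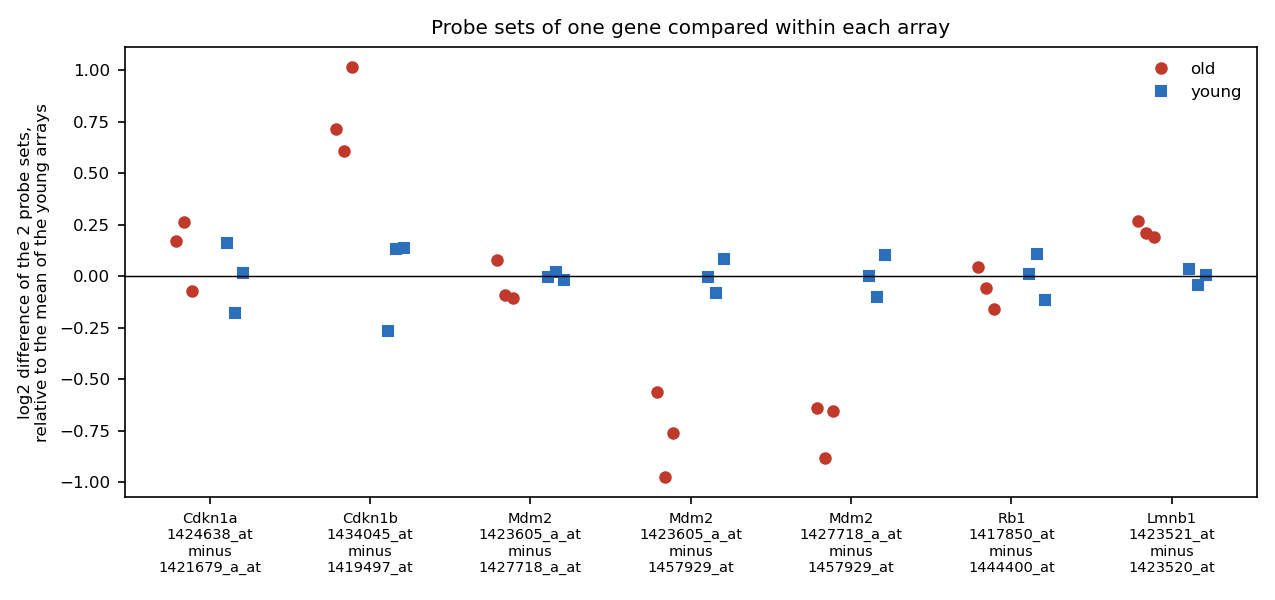
Difference between 2 probe sets of a gene in each array (log2, vertical axis), relative to the mean of the 3 young arrays, for the 7 pairs of probe sets, with old arrays as red circles and young arrays as blue squares. Old and young arrays separate for the pair of Cdkn1b, for the pairs that hold the dimmest Mdm2 probe set, and by a smaller distance for Lmnb1.

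Genes around these regulators were taken from 8 lists written from general knowledge, but with earlier results of these data known. The shares of these lists are therefore not those of genes chosen blind to the data. Each gene was represented by its brightest probe set in the same fit. Of 136 measured genes, 22 rose (16.2%), 27 fell (19.9%) and 87 did not pass, and 1 gene also reached a fold of 2, against 0.764% of all genes. Over all 18193 genes, 21.7% passed, 9.34% higher and 12.4% lower, and among those with a mean log2 of at least 5, 26.7% passed. The median log2 fold change of the 136 genes was -0.02, and that of all genes was -0.0042. After quantile normalization of the values again, 26 rose and 21 fell. The counts also varied with the samples: without young replicate 2, 10 of the genes rose and 17 fell, and without old replicate 3, 10 rose. Without old replicate 1, 11 rose, without old replicate 2, 13, without young replicate 1, 13 with 17 lower, and without young replicate 3, 11.

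In the list of 9 cyclins and CDKs of the G1 and S phases, 2 rose and 3 fell (median 0.01). Ccne2, a cyclin E that activates CDK2, had 6.73, 6.48 and 6.43 in the old samples, against 7.15, 7.11 and 7.16 in the young samples, a log2 fold change of -0.59 (standard error 0.09, limma, adjusted p = 0.0030). Cdk2 itself fell by 0.36 and Cdk4, the kinase that the INK4 proteins block, fell by 0.32 on the log2 scale. The D-type cyclin gene Ccnd2, which granulosa cells use to divide, rose by 0.24. Among 8 other CDK inhibitor genes and genes of p27 turnover, 2 rose and 2 fell (median -0.02). Cdkn3, a phosphatase that acts on CDKs, rose by 0.34, and Cks1b, a cofactor in the ubiquitination of p27, by 0.23. Skp1 and Rbx1, subunits of the ubiquitin ligase that degrades p27, fell by 0.38 and 0.35 (limma, adjusted p = 0.0032 and 0.041). Rbx1 was the less certain, with 5.40, 5.65 and 5.80 in the old and 5.97, 6.01 and 5.93 in the young samples. Skp2 and Cul1, further subunits of the same ligase, did not pass, at -0.0024 and -0.03 (limma, adjusted p = 0.98 and 0.76).

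Of 16 genes of the RB family, the E2F factors and their partners, 1 rose and 4 fell (median -0.07). Rbl2, which encodes the pocket protein p130 of resting cells, had 7.52, 7.67 and 7.65 in the old samples and 8.41, 8.31 and 8.29 in the young samples. The groups lay well apart, with a log2 fold change of -0.72 (standard error 0.07, limma, adjusted p = 0.00052). Tfdp1, a partner with which E2F factors bind DNA, had 8.09, 8.08 and 8.09 in the old and 8.78, 8.77 and 8.70 in the young samples, a log2 fold change of -0.66 (standard error 0.06, limma, adjusted p = 0.00030). Its relative Tfdp2 fell by 0.22, and the repressor E2f7 rose by 0.24.

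Of 18 relatives, kinases and regulators of p53, 2 rose and 6 fell (median -0.10). The ubiquitin ligase genes Rchy1 and Cop1, whose products degrade p53, fell by 0.59 and 0.25, as did Trim24 by 0.56, which encodes a further ligase for p53, and the acetyltransferase gene Crebbp by 0.27. Rchy1 had the smallest p of these (limma, adjusted p = 0.00068). Of 32 target genes of p53, 4 rose, 3 fell and 25 did not pass, with a median of 0.01, so that 21.9% passed, close to the 21.7% of all genes. Btg2, an antiproliferative gene that growth factors also induce within minutes, had 8.79, 8.91 and 8.85 in the old samples, against 6.87, 6.93 and 6.81 in the young samples, a log2 fold change of 1.98 (standard error 0.06, limma, adjusted p = 3.8e-06), a fold of 3.94. It was the gene that also reached a fold of 2. The autophagy gene Dram1 rose by 0.49 and the membrane protein gene Cd82 by 0.39, while the stress gene Gadd45a fell by 0.42. The part of the immediate-early response in the value of Btg2 was not tested.

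Among 12 genes of the nuclear lamina and the inner nuclear membrane, 2 rose and none fell (median 0.01). Sun2, which links the lamina to the cytoskeleton, rose by 0.33, and Banf1, which binds DNA to the lamina, by 0.27. Of 26 factors that senescent cells secrete, 8 rose and 5 fell (median 0.15). The 4 with the smallest p all fell: Igfbp7 by 0.56, Igfbp5 by 0.52, Igfbp2 by 0.50 and the membrane protease gene Mmp14 by 0.39 on the log2 scale. Igfbp5 had 11.11, 11.09 and 11.11 in the old and 11.65, 11.61 and 11.61 in the young samples. The genes that rose were the chemokine genes Cxcl1 (0.49), Cxcl2 (0.61), Ccl2 (0.37), Ccl5 (0.61) and Ccl8 (0.47), with Il1b (0.22), Igfbp3 (0.25) and Timp1 (0.57), and they were named after their values were seen. Apart from Cxcl1, at 7.29 in the old and 6.80 in the young samples, and Timp1, at 8.31 and 7.74, these were dim, with mean log2 intensities of 3.21 in the old and 2.6 in the young samples for Cxcl2 at the lowest and 4.70 and 4.09 for Ccl5 at the highest, while the 4 named above that fell lay between 7.74 and 11.10 in the old and between 8.24 and 11.63 in the young samples. Chemokines are also made by leukocytes, of whose markers 7 of 11 were higher in the same samples, against 9.34% of all genes. The part of leukocytes was not tested. Polycomb complexes silence Cdkn2a in many cells. Of 15 measured genes, which were Polycomb subunits and Kdm6b, a demethylase that opposes this silencing, 1 rose and 4 fell (median -0.12). Bmi1, best known for this silencing, fell by 0.30, Rnf2 by 0.29 and Phc1 by 0.29, and Pcgf2 rose by 0.22. Of the 15 genes, 10 did not pass, and the part of Polycomb in the value of Cdkn2a was not tested.

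**Figure D4:**
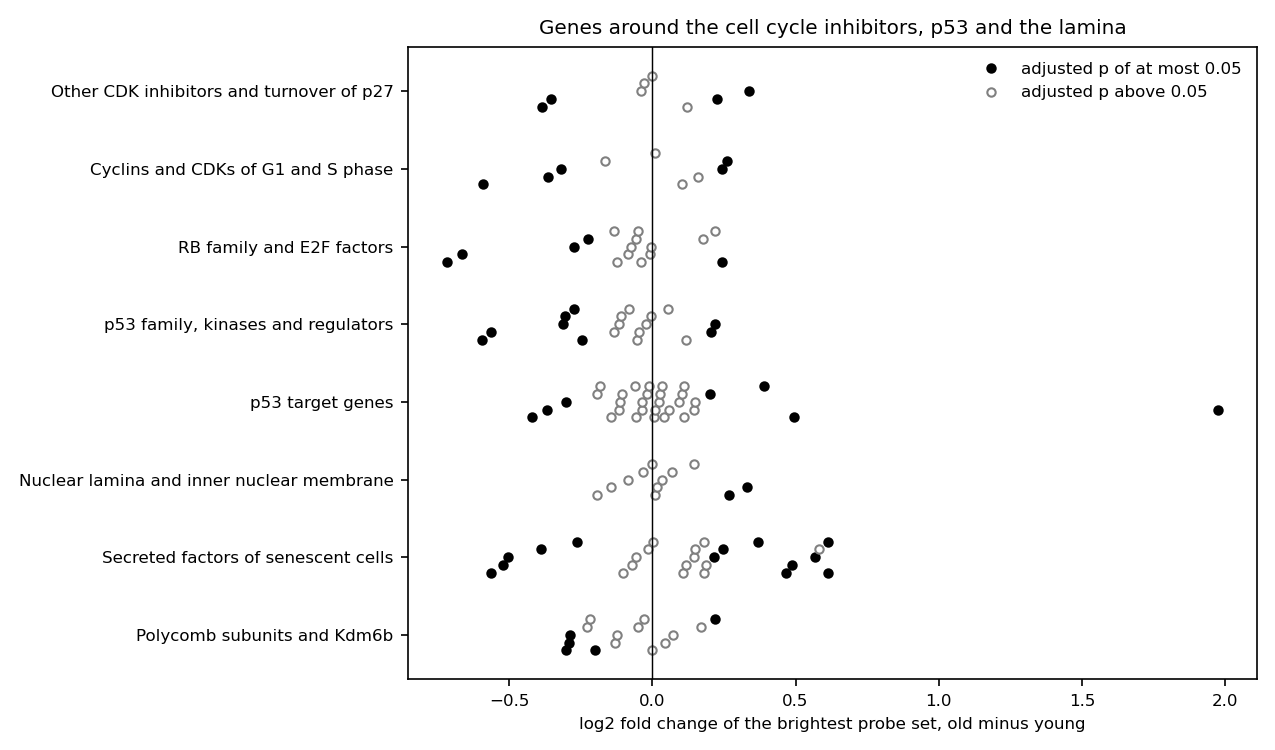
Log2 fold change of the brightest probe set of each gene, old minus young (horizontal axis), in the 8 lists (rows). Filled points have an adjusted p of at most 0.05; the p53 targets gather around 0 apart from Btg2 at 1.98, and the secreted factors spread to both sides.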

How the data were processed

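RNA of secondary follicles from 3 old and 3 young samples was measured on Affymetrix 3' arrays. The authors processed the scans with RMA, which corrects background, normalizes arrays by quantiles and summarizes probe sets, and deposited intensity values on a linear scale; the version of RMA was not stated. Log2 was taken without a pseudocount, since the lowest intensity was 2.62. Array medians of log2 intensity lay between 4.93 and 4.95, while the quartiles differed by age, as given above. Precision was limited by the number of arrays.

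Of 45101 probe sets, 34958 had 1 gene symbol in the array annotation, 932 had several and 9211 were not listed, and 34945 remained without control probe sets. Symbols were updated by gene ID from RefSeq (GRCm38.p6), with 18033 of 18195 IDs matched. Probe set levels are not compared between genes. The comparison used limma 3.58.1 in R 4.3.3 (two-sided, Benjamini-Hochberg), without a block, since the study's methods do not pair the numbered samples. Deviations from the group mean correlated at 0.065, 0.014 and 0.043 for same-numbered samples, and from -0.078 to 0.052 for the others. Alternatives were SAM, which the study used and which was written anew, other rules for probe sets, normalizations, a pseudocount, variance priors, array weights, a block and leaving out samples. Pairs of probe sets and controls were compared by exact permutation tests.

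Named are all probe sets of the 10 genes and, in each other list, up to 4 genes with the smallest p among those that passed. Skp2, Cul1 and the secreted factors that rose were named besides, after their values were seen. The genes and lists were chosen with earlier results of these data known. In data simulated for this comparison over 34945 probe sets, limma found 48 of 100 changes of 0.5 and 97 of 100 of 1.5 on the log2 scale, with 4 false calls, and SAM 44 and 97 with 6 false calls. Only these changes were put in, with independent normal noise and no shift shared by the arrays of an age. In the data 22.8% of all probe sets passed, so these rates cannot be carried over to them.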

Additional observations from a re-analysis of the deposited data

How the results depend on the processing

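Of the 5 higher and 3 lower probe sets, 4 and 3 passed with the replicate block, 3 and 2 without dim probe sets, and between 2 and 3 higher and 2 and 3 lower without each sample in turn. Of all probe sets left in the fit without dim ones, 42% passed. The calls missing there were those of Cdkn2a, the dimmest Mdm2 and the dimmer Cdkn1b probe set, which were left out as dim. With 1 value per gene, and so 9 genes in place of 15 probe sets, 3 genes were higher and 1 lower by the brightest probe set, and 3 higher and 1 lower by the mean of the probe sets. Of all genes, 23.4% and 22.7% passed in these fits. Leaving out a sample also lowered the share of all probe sets that passed, to between 14.9% and 18.7%, against 22.8% with all samples. A fold of at least 1.5 in place of 2 gave 1 higher and 1 lower probe set, and the share of all probe sets at that fold was not counted. With an intensity trend in the prior, 6 were higher, since Cdkn1b at 1434045_at passed as well (adjusted p = 0.027), and 28.8% of all probe sets passed. With the replicate block, which pairs samples by number only, the dimmer Cdkn1a probe set (0.31, adjusted p = 0.056) was the only call of the 15 that changed, 12 of the pathway genes were higher and 19 lower, and 19.3% of all probe sets passed. Without each sample in turn, between 10 and 13 pathway genes were higher and between 17 and 20 lower.

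With the probe sets of a gene averaged, Cdkn1b was at -0.20 and Mdm2 at 0.17, opposite in sign to their brightest probe sets, and without each sample in turn the middle Mdm2 probe set was between -0.13 and 0.016, with the positive value without old replicate 1. The difference of the brightest and middle Mdm2 probe sets changed sign after quantile normalization (0.042) and cyclic loess (0.037), as did that of the Rb1 probe sets (0.11 and 0.085, and 0.050 with a pseudocount of 16). None of these values passed a test, and the cause was not tested. With the pseudocount, the dimmer Cdkn1b probe set was at -0.33. The 3' minus 5' differences of the controls kept their direction under every alternative run, and that of the added RNAs was 0.48 with the pseudocount.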
